A study of Homo sapiens with 4 samples.

Results

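The YAP-TEAD axis is described here by 10 genes, namely ANKRD1, CTGF, CYR61, AMOTL2, AJUBA, LATS2, YAP1, WWTR1, TEAD1 and TEAD4, in RNA-seq of MDA-MB-231 breast cancer cells. The genes were chosen by symbol, with earlier results of these data known. Each of the 10 was found among the 15113 gene symbols of the table, where they account for 30 of 43596 transcripts. MDA-MB-231 is a mesenchymal-like, triple-negative breast cancer line. The cells were treated for 24 h with DMSO, the vehicle, or with 10 µM KH-3, a small molecule inhibitor of the RNA-binding protein HuR, and each condition had 2 libraries. The table gives 1 mean normalised read count per transcript, averaged over libraries that the sources used here do not name. Each value below is therefore an average level, without an error, and none of them is assigned to DMSO or to KH-3. No difference between KH-3 and DMSO was tested, because no value per library was at hand.

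YAP1 and its paralog TAZ, the product of WWTR1, are transcriptional coactivators that bind no DNA themselves. They act through the TEAD factors, which bind the motif GGAATG, the MCAT element, and raise genes such as CTGF, CYR61 and ANKRD1. The Hippo kinase cascade restrains them: MST1 and MST2 activate the LATS kinases, which phosphorylate YAP1 and TAZ and hold them in the cytoplasm. In MDA-MB-231 cells, which carry a mutation that inactivates the upstream regulator NF2, YAP1 and TAZ are known to be active.

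The sequences shown next are the stretches of the ANKRD1, CTGF, AMOTL2 and YAP1 promoters that hold the TEAD motif before the start of a transcript measured below. Each is 30 bases of RefSeq promoter sequence of GRCh38.p14, 5′ to 3′ on the strand of the gene, with the motif in capitals (CATTCC is the motif on the other strand).
ANKRD1, chr10:90921290-90921319, minus strand: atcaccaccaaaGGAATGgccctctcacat
ANKRD1, chr10:90921198-90921227, minus strand: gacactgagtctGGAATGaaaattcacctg
CTGF, chr6:131951524-131951553, minus strand: ttttcagacggaGGAATGctgagtgtcaag
CTGF, chr6:131951454-131951483, minus strand: gtggggaGGAATGcgaGGAATGtccctgtt
AMOTL2, chr3:134374499-134374528, minus strand: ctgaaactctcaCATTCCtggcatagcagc
YAP1, chr11:102110273-102110302, plus strand: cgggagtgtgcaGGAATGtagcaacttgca

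Levels were compared between genes per length. The level of a gene is the mean normalised read count of each listed transcript divided by its length in kb, summed over the transcripts of the gene, and is given as reads per kb. The median gene of the table had a level of 108 reads per kb. The 10 genes lay between 154 and 12696 reads per kb with a median of 805, so all 10 were above the median gene and 6 were among the highest 10% of genes. Since the genes were chosen with earlier results of these data known, these counts are no independent test of the set. They also depend on the setting, since AJUBA and AMOTL2 were at percentiles 90.2 and 90.1. With transcripts of a mean of at least 50 alone, 9 genes were above the median gene, LATS2 being below it at percentile 47.3, and 3 were among the highest 10%, while with the highest transcript of each gene 4 were. The target genes ANKRD1, CYR61 and CTGF stood at the top, and the kinase gene LATS2, which is also a target, at the bottom. The range was 82.3-fold.

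The 3 secreted or nuclear target genes had the highest levels of the set. ANKRD1, on chromosome 10 from 90912096 to 90921087 on the minus strand, encodes an ankyrin repeat protein of the nucleus and the sarcomere that is best known from heart muscle. It had a mean normalised read count of 25124 and a level of 12696 reads per kb, at rank 38 of 15113 genes. CYR61, on chromosome 1 from 85580761 to 85584589 on the plus strand, encodes a matricellular protein that binds integrins. Its mean normalised read count was 24191 and its level 10700 reads per kb, at rank 46. CTGF, the paralog of CYR61 on chromosome 6 from 131948176 to 131951372 on the minus strand, had a mean normalised read count of 9499 and a level of 4061 reads per kb, at rank 162. In these averages ANKRD1 was 3.13-fold above CTGF and 1.19-fold above CYR61. Since the spread between libraries is unknown, the order of ANKRD1 and CYR61 is given without a statement on its error.

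These levels can be set beside a gene of known abundance in the line. VIM, the intermediate filament vimentin of mesenchymal cells, had a level of 10135 reads per kb at rank 53. ANKRD1 was 1.25-fold above VIM in the averaged table. Protein-coding transcripts held 37.4% of the VIM level, and with these alone ANKRD1 was 3.35-fold above VIM. With the highest transcript of each gene the ratio was 2.24.

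**Figure D1:**
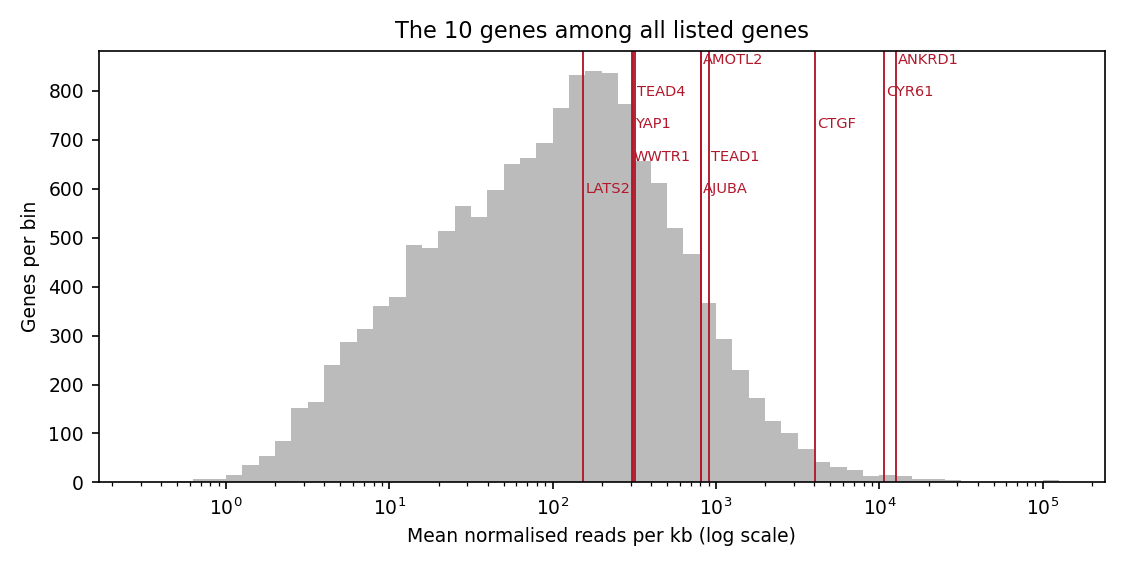
Histogram of the averaged level of all 15113 genes (x axis, mean normalised reads per kb, log scale; y axis, genes per bin), with a red line for each of the 10 genes. ANKRD1, CYR61 and CTGF lie in the right tail, while YAP1, WWTR1, TEAD4 and LATS2 lie near the bulk of the genes.

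The coactivators themselves had moderate levels. YAP1, on chromosome 11 from 102110447 to 102233424 on the plus strand, had a level of 312 reads per kb, above 74.7% of genes. WWTR1, on chromosome 3 from 149517235 to 149736714 on the minus strand, had 304 reads per kb, above 74.2% of genes. The ratio of YAP1 to WWTR1 was 1.02 on this scale. When only the highest transcript of each gene was taken, the ratio was 0.424, since the highest transcript held 36.0% of the YAP1 level and 87.0% of the WWTR1 level, so which coactivator had the higher mRNA level depends on how transcripts are combined.

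Of the DNA-binding partners, TEAD1 had the highest level. TEAD1, on chromosome 11 from 12674421 to 12944737 on the plus strand, had 899 reads per kb, and TEAD4, on chromosome 12 from 2959330 to 3040676 on the plus strand, had 317 reads per kb. The paralogs TEAD3 and TEAD2 were lower, with 143 and 83.00 reads per kb. Of the summed level of the 4 TEAD genes, TEAD1 made up 62.4%, TEAD4 22.0%, TEAD3 9.91% and TEAD2 5.75%. Of the 899 reads per kb of TEAD1, 589 were in TEAD1-007. This model starts at 12879443 and lacks the exons of TEAD1-001 that lie before that base. The place and share of TEAD1 thus rest largely on TEAD1-007, and the order of the TEAD genes without it was not tested. Without division by length the shares of TEAD1 and TEAD4 were 83.1% and 7.86%, and TEAD2 had between 2.05% and 5.96% over the other settings tried.

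The regulators covered the middle and the lower end. AJUBA, on chromosome 14 from 22971177 to 22982551 on the minus strand, encodes a LIM protein that binds LATS kinases and restrains them, and had 806 reads per kb. AMOTL2, on chromosome 3 from 134355347 to 134375479 on the minus strand, encodes a junctional protein that binds YAP1 and is itself a YAP target, and had 805 reads per kb. The pair was the closest of the set in this setting, with a ratio of 1.00. With protein-coding transcripts alone AJUBA had 783 and AMOTL2 541 reads per kb. Without division by length AMOTL2 was the higher, with 3233 reads against 2629 for AJUBA, so their order depends on the setting. LATS2, the kinase that phosphorylates YAP1 and TAZ and is also raised by them, lies on chromosome 13 from 20973036 to 21061586 on the minus strand and had 154 reads per kb, the lowest of the 10. Its paralog LATS1 had 95.6 reads per kb, so that LATS2 was 1.61-fold above it.

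The paralogs of the regulators had lower levels than the members. AMOTL1 had 209.5 reads per kb and AMOT 1.37, so AMOTL2 carried most of the angiomotin family level. LIMD1 and WTIP, the LIM proteins nearest to AJUBA, had 232 and 86.9 reads per kb.

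Of the other 37 genes of the axis and its targets, 35 were listed and 25 were above the median gene. VGLL1 and VGLL2, tissue-restricted TEAD cofactors, had no row, which for this table means only that they were under its lower limit or left out, and VGLL3 had 10.3 reads per kb against 223 for VGLL4, which competes with YAP1 for TEAD. Among the kinase core and its adaptors, all 10 genes were listed, between 53.1 reads per kb for NF2, the merlin gene, and 1267 for FRMD6, a FERM protein. Without division by length FRMD6, with 2471 reads, was below MOB1A with 3017 and TAOK1 with 2588. The kinases STK4 and STK3, which encode MST1 and MST2, had 310 and 152 reads per kb, and the scaffold SAV1 had 720. MOB1A, a cofactor of the LATS kinases, had 896 reads per kb and its paralog MOB1B 137.

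Further targets spread over a wider range than the core. All 16 of the other targets were listed and 13 were above the median gene. F3, the tissue factor that starts coagulation, had 7580 reads per kb, NT5E, the ecto-nucleotidase CD73, had 4653, and AXL, a receptor tyrosine kinase, had 2820. At the low end stood RBMS3 with 31.8 and the kinase NUAK2 with 32.5 reads per kb. Together with PTPN14 and the members ANKRD1, CTGF, CYR61, AMOTL2 and LATS2, these targets form a list of 22 genes known to respond to YAP and TAZ. All 22 were listed, 19 were above the median gene and 9 were among the highest 10% of genes, with a median of 363 reads per kb.

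**Figure D2:**
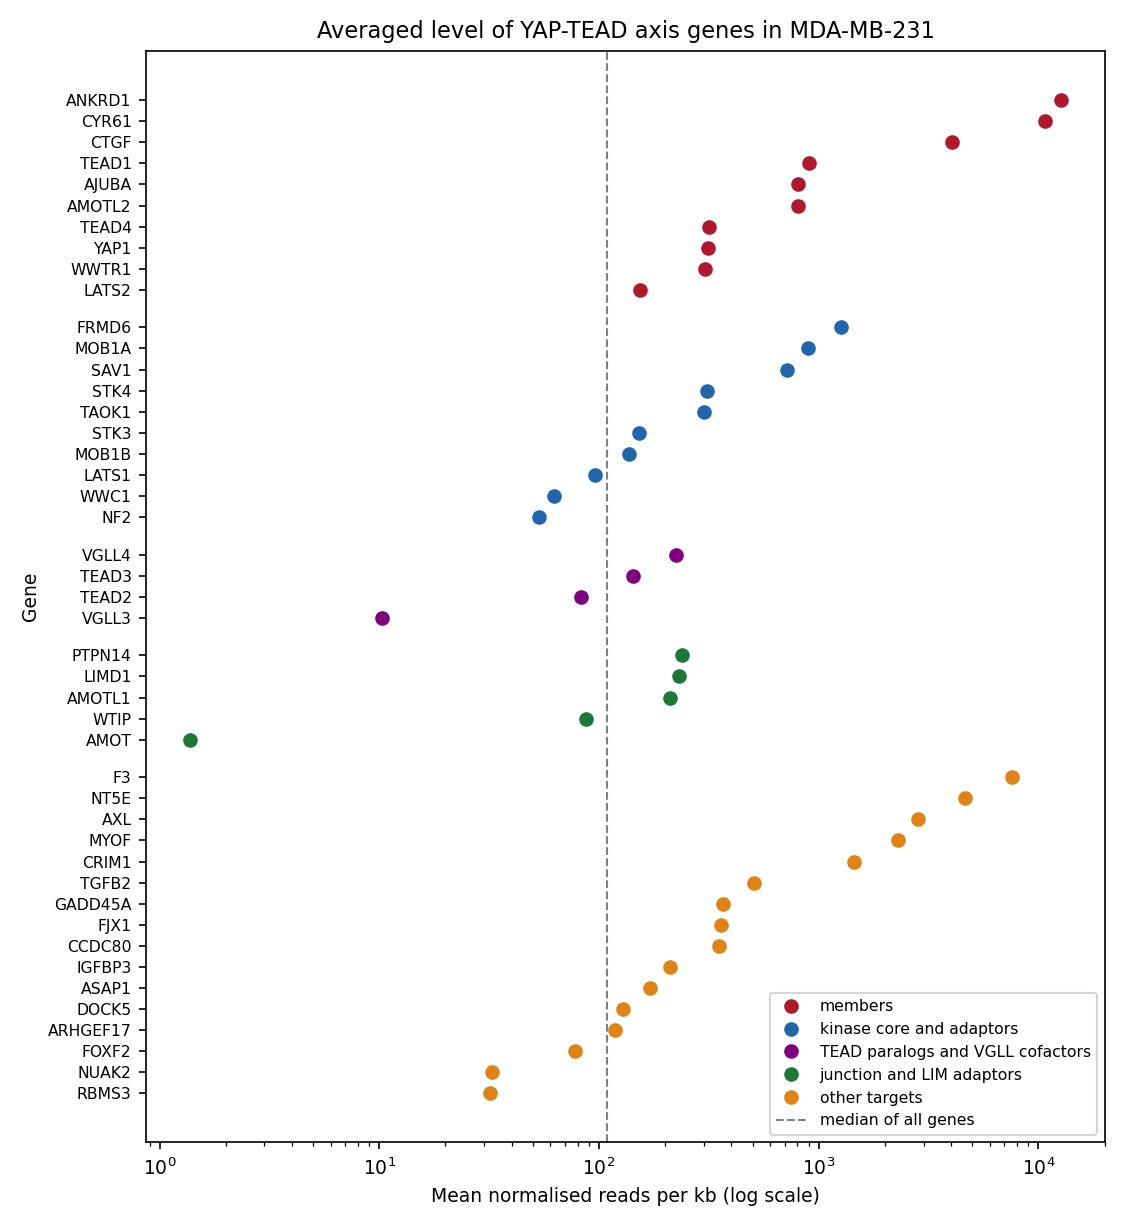
Averaged level of the 10 genes and of the listed genes of the axis (x axis, mean normalised reads per kb, log scale; y axis, genes grouped by role), with 1 point per gene and the median of all genes, 108, as a dashed line. No error bars are drawn because the table gives 1 average per transcript. ANKRD1 is the highest point and AMOT, at 1.37, the lowest.

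The cell line was checked against its markers on the same scale. VIM, CD44, AXL, EGFR and CAV1 had 427 to 10135 reads per kb, whereas FN1, also written as a marker of the line, had only 8.64. ESR1, PGR and CDH1 had no row, and ERBB2, GATA3 and EPCAM had 29.5 to 44.3 reads per kb, under the median gene. Of the markers of other cell types, PTPRC had no row, and PECAM1, PDGFRB and COL1A1 had 4.08, 29.1 and 39.4 reads per kb.

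The 10 genes differed in how their level was divided over transcripts. ANKRD1, CTGF and LATS2 had 1 listed transcript each. The other 7 had between 2 and 6, and the highest transcript held a median of 65.5% of their level, beside 60.2% over the 10289 genes of the table with more than 1 transcript. Protein-coding transcripts held the whole level of 6 of the 10 genes, and the lowest share was 67.2%, in AMOTL2. The median of this share over the 12120 genes with a protein-coding transcript was 97.2%. Of the 30 transcripts, 26 were protein coding, 3 were annotated as retaining an intron and 1 as a processed transcript. Reads shared by overlapping transcripts were divided by an estimate, so shares of models that differ in few bases, such as those of YAP1 or AMOTL2-014 and AMOTL2-001, rest on reads from those bases.

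**Figure D3:**
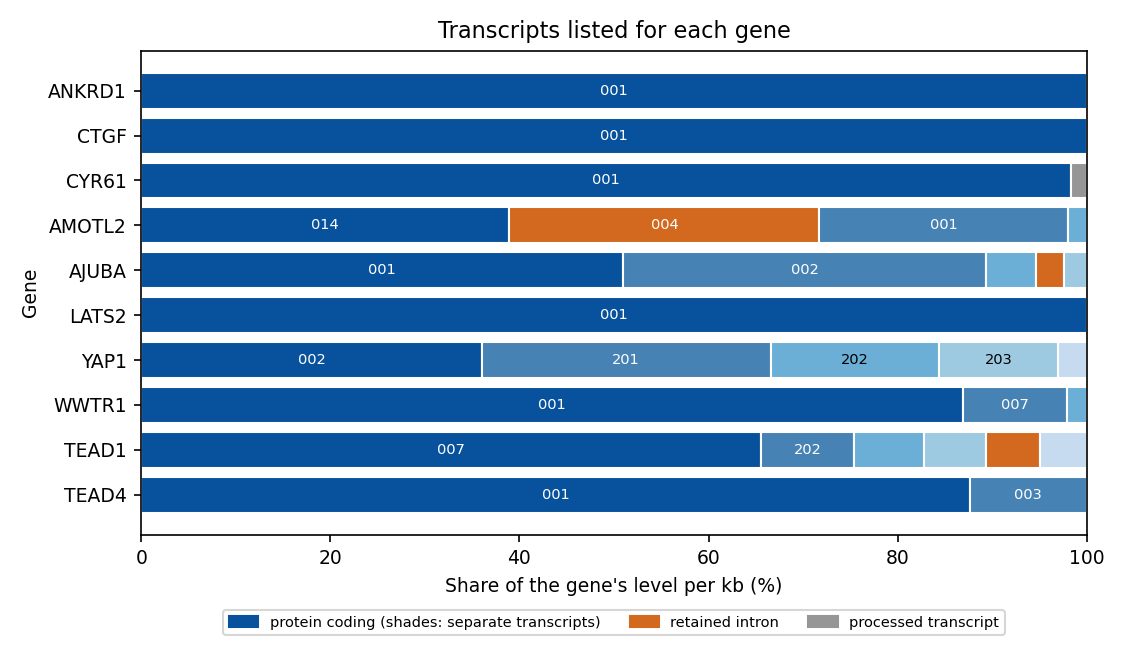
Share of the level of each gene in its listed transcripts (x axis, percent of reads per kb; y axis, gene), with transcript numbers in the bars and the transcript type by colour. AMOTL2, AJUBA and YAP1 are divided over several large transcripts, while ANKRD1, CTGF and LATS2 have 1 each.

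YAP1 had 5 protein-coding transcripts. YAP1-002 had a mean normalised read count of 605, YAP1-201 of 504, YAP1-202 of 296, YAP1-203 of 213 and YAP1-005 of 13.97. On the level scale these were 36.0%, 30.6%, 17.8%, 12.6% and 3.01% of the gene. The models differ in 3 coding parts of the gene, and all 3 keep the reading frame. The fourth exon, of 114 bases or 38 codons, encodes the second WW domain, through which YAP1 binds partners with a PPxY motif. It was in 4 of 5 transcripts, which held 69.4% of the level, and it was missing from YAP1-201. The sixth exon, of 48 bases or 16 codons, was in transcripts with 79.2% of the level. It lies in the stretch that encodes a leucine zipper, as does an extension of 12 bases or 4 codons at the end of exon 5, which was in transcripts with 61.0% of the level.

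The extension is shown because it decides between a pair of neighbouring splice donors, each starting with gt. The 30 bases are from hg38, on the plus strand, with the 12 bases of the extension in capitals, the shared exon before them and the intron after them.
YAP1 exon 5, chr11:102206066-102206095: cttcggcagGTGAGGCCACAGgttagaaac

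**Figure D4:**
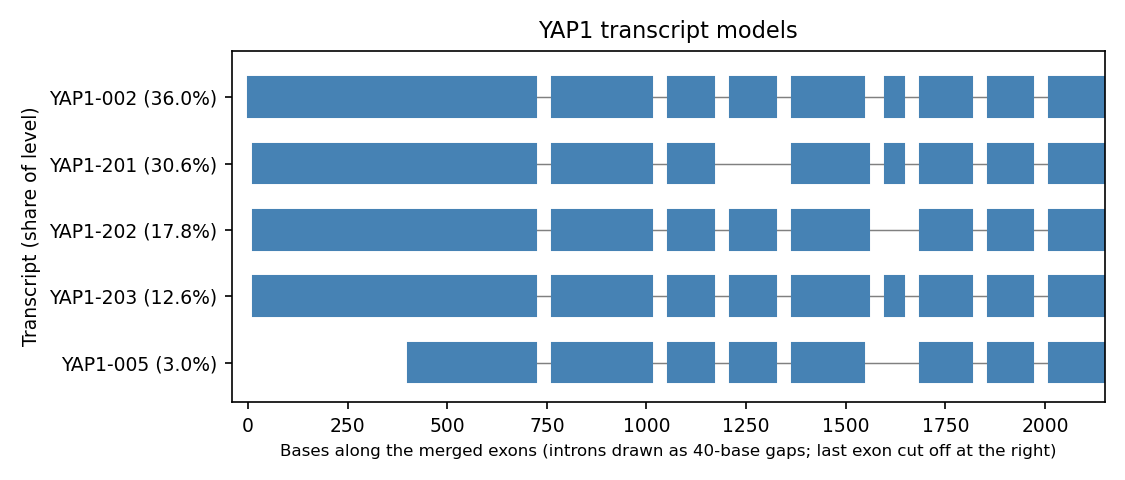
Exons of the 5 listed YAP1 transcripts as annotated in GENCODE release 44 (x axis, bases along the merged exons; y axis, transcripts with their share of the YAP1 level). YAP1-201 lacks the fourth exon, YAP1-202 and YAP1-005 lack the sixth, and YAP1-002 and YAP1-005 have the shorter exon 5.

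WWTR1 had most of its level in 1 transcript. WWTR1-001, which begins at 149703273, had a mean normalised read count of 1331 and 87.0% of the level. WWTR1-004, which begins at 149658025 and has the same 400 codons, had a mean normalised read count of 13.3 and 2.08% of the level. WWTR1-007, a model of 604 bases that begins near it at 149658041, had a mean normalised read count of 20.1 and 10.96% of the level. The table gives WWTR1-004 a length of 2103 bases and WWTR1-001 one of 5030, and in release 44 the former has 5037 bases with the same last exon of 3755 bases. How far this difference in length bears on the split was not tested.

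TEAD1 showed the same kind of annotation difference on a larger scale. TEAD1-007 had a mean normalised read count of 4995, which was 90.1% of the reads of the gene and 65.5% of its level per kb. This model starts within the gene, at 12879443, has 330 codons, and its last exon of 7375 bases makes up 87.0% of its 8477 bases. TEAD1-001, with 426 codons, had a mean normalised read count of 149 on a length of 2544 bases in the table, and its model in release 44 has 9417 bases with a last exon of 7629. The other transcripts together held 34.5% of the level. With the lengths of release 44 the level of the gene was 857 in place of 899 reads per kb. That setting changed the lengths alone and kept the read count of each transcript as estimated on the earlier models. At 2544 bases, the earlier model of TEAD1-001 could not hold the whole last exon of 7629 bases. How reads would divide between TEAD1-007 and TEAD1-001 on the models of release 44 was therefore not tested.

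TEAD4 had a full-length transcript, TEAD4-001 of 434 codons, with a mean normalised read count of 469 and 87.6% of the level. The shorter TEAD4-003, with 305 codons and another start, had a mean normalised read count of 54.8 and 12.4% of the level. It lacks the exon of 255 bases that in TEAD4-001 runs from 2994738 to 2994992.

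AMOTL2 was the member with the largest share in a non-coding model. AMOTL2-014 had a mean normalised read count of 1358, AMOTL2-001 of 950, AMOTL2-004 of 854 and AMOTL2-005 of 71.6. AMOTL2-004, annotated as retaining an intron, held 32.8% of the level, and with protein-coding transcripts alone the level of AMOTL2 was 541 in place of 805 reads per kb. AMOTL2-014 and AMOTL2-001 begin at the same base and together held 65.2% of the level. AMOTL2-005, with 837 codons from another first exon, held 1.97%.

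AMOTL2-014 has 779 codons and AMOTL2-001 has 780 in release 44. The difference is 1 codon at the start of the ninth exon, where the splice acceptor is followed by a further cag. The 30 bases are from hg38, on the minus strand, with the 3 bases of the longer exon in capitals.
AMOTL2 exon 9, chr3:134358705-134358734: cacctacctttccagCAGacagagcaccca

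AJUBA was divided between a full-length and a short form. AJUBA-001, with 538 codons, had a mean normalised read count of 1752 and 51.0% of the level. AJUBA-002 starts within the gene, has 121 codons, and had a mean normalised read count of 819 and 38.4% of the level. By reads without division by length the shares were 66.6% and 31.2%. CYR61 had 98.3% of its level in its coding transcript, and CYR61-002, a processed transcript of 551 bases, had the rest.

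The promoter windows of RefSeq reach from 250 bases before to 49 after the first base of a transcript, which is counted as 0. Windows were given for 7 of the 10 genes, 10 in all. CYR61, TEAD1 and TEAD4 had none in this table. The TEAD motif GGAATG, searched on both strands, was in 6 of the 10 windows, 1 window in each of 6 genes, and in 14.03% of all 35116 windows. The genes were chosen as parts of the axis, known TEAD targets among them, so these shares are no independent test of the set. The AP-1 motif TGANTCA, which equals its own reverse complement, was in 1 of the 10 windows and in 7.71% of all windows. A match is a description of the letters and does not show that a factor was bound.

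CTGF had 3 copies of GGAATG, which 0.128% of all windows had or exceeded, at positions -169, -104 and -95. The last pair is separated by 3 bases, as the sequence above shows. ANKRD1 had 2 copies, at -220 and -128, and an AP-1 motif between them at -195. A window with 2 or more copies made up 1.37% of all windows. AMOTL2 had a copy at -69 before the start shared by AMOTL2-014 and AMOTL2-001, and none in the window of its other start. YAP1 had a copy at -162 before the start of YAP1-002, and LATS2 had one just after its start, at 9. In AJUBA the copy at -59 belonged to a start used by no listed transcript. This copy lies within the first exon of AJUBA-002, which runs from 22976645 to 22977223. The window of AJUBA-001 held none. Neither window of WWTR1 held the motif. Of the genes for which a window was at hand, ANKRD1 and CTGF had the highest levels and were the only ones with more than 1 copy. CYR61, whose level lay between theirs, had no window, and a relation of copy number to level was not tested.

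**Figure D5:**
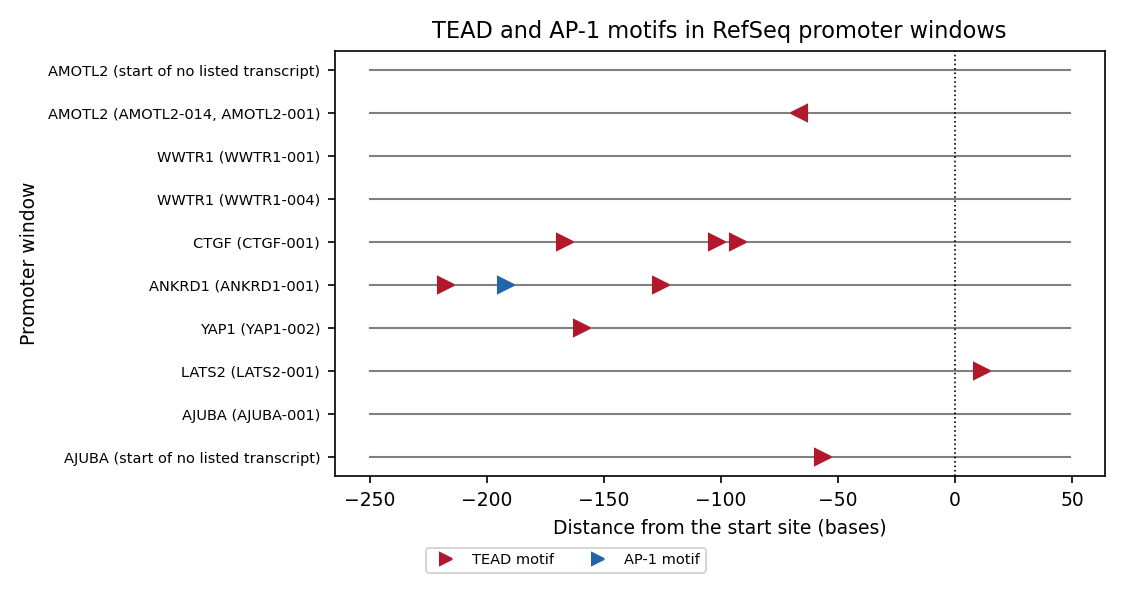
Positions of the TEAD motif GGAATG (red) and the AP-1 motif TGANTCA (blue) in the 10 promoter windows (x axis, bases from the start site, dotted line; y axis, gene with the listed transcripts that begin there). Triangles point right for the strand of the gene and left for the other. CTGF has 3 TEAD motifs and ANKRD1 has 2 with the AP-1 motif between them.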

How the data were processed

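MDA-MB-231 cultures received DMSO or 10 µM KH-3 for 24 h, and 2 RNA-seq libraries represent each condition. The authors mapped reads with STAR to GENCODE release 24 transcripts, estimated reads per transcript with eXpress, and normalised and compared them with DESeq2, on hg38 per the labels. Tool versions are not given in the sources used here. The deposited mean normalised read count is a signal averaged over libraries by the authors. Which libraries entered that mean is not stated, and the methods name a further dose of KH-3 as another group. The deposited table also holds the fold change, p-value and q-value of the authors' own comparison, which were not used.

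Depth per library is unknown, and no replicate error, interval or test could be had. Transcripts with a mean under 7.34 are not listed. Levels per kb, percentiles and shares were computed in Python 3.11.15 and tested on simulated data. Exons, codons and gene positions come from GENCODE release 44 on hg38, in which 29 of the 30 transcripts were found by ID, 18 of them with the length of the table. CTGF and CYR61 are CCN2 and CCN1 there. Promoter windows come from RefSeq on GRCh38.p14. Protein sequences were not analysed here. Genes of the opposite strand that overlap an exon of the 10 genes were searched by their release 44 names. LINC01013, at CTGF, and WWTR1-AS1, at WWTR1, were not listed under these names. Those at YAP1 have only an ID as name in release 44, so the search could not show whether they were listed.

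The 10 genes and the pathway and marker lists were chosen with earlier results of these data known. All 10 genes are named with their values, and from the lists the highest, the lowest and the unlisted genes and any listed gene. Alternatives covered scaling by length, transcript type, the highest transcript only, a minimum mean of 50, a longer motif and the lengths of release 44. The setting with the lengths of release 44 kept the deposited read counts, so reads were not divided anew over its models.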

Additional observations from a re-analysis of the deposited data

How the results depend on the processing

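ANKRD1, CYR61 and CTGF were the first 3 genes, in this order, in all 6 settings of level, and LATS2 was last in 4 of the 6. Without division by length TEAD4 was last, and with the highest transcript alone YAP1 was last. Of the 10 genes, 4 kept their place without division by length, 7 with the highest transcript only and 8 with a minimum mean of 50. The ratio of YAP1 to WWTR1 was 1.20 without division by length, 0.424 with the highest transcript only, 1.14 with the minimum mean and 1.04 with the lengths of release 44, an alternative chosen after seeing the data. The median percentile of the 10 genes, 90.2 in the report's setting, was 95.00, 85.0 and 86.2 in the same 3 settings, 88.6 with protein-coding transcripts only and 90.1 with the lengths of release 44. The highest transcript held a median of 89.5% of reads without division by length and 68.96% of the level with the minimum mean. The longer motif GGAATGT was found in 3 genes, namely AMOTL2, CTGF and YAP1, and in 3.46% of all promoter windows. The same settings were applied to the TEAD shares, the ratio of ANKRD1 to VIM and the counts above the median gene after seeing the data. Protein motifs and all alternatives of a comparison of KH-3 with DMSO were not run. No paired analysis was possible because the table analysed holds 1 averaged value per transcript and none per library, and no replicate could be left out for the same reason.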
